A study of Mus musculus with 54 samples.

Results

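The IGF axis genes of the mouse mammary gland were Igf1, Igf2, Igf1r, Igfbp2, Igfbp3, Igfbp4 and Igfbp6. Their members were the probe sets annotated to exactly 1 symbol among these names: 12 of the 12488 probe sets on the array, for 7 of the 8251 genes with such a probe set. On the GRCm38.p6 build the genes lie at chr10:87858265-87937047 (Igf1), chr7:142650768-142666816 (Igf2), chr7:67952257-68233668 (Igf1r), chr1:72824480-72852474 (Igfbp2), chr11:7206086-7215498 (Igfbp3), chr11:99040005-99052655 (Igfbp4) and chr15:102144186-102149512 (Igfbp6). In all 54 samples were hybridised to 1-colour Affymetrix arrays, 3 mice at each of 18 time points. The values are MAS5 signals, and with 3 mice per time point the number of arrays limits the precision of every value.

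Insulin-like growth factors are secreted peptides related to insulin. Igf1 and Igf2 both signal through the receptor tyrosine kinase Igf1r, while the binding proteins hold the ligands in the extracellular fluid and set how much of them reaches the receptor. In the mammary gland, growth hormone acts on stromal cells to raise local Igf1, which is known for its part in the growth of the ducts, and the binding proteins are known as modulators of epithelial survival.

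The virgin groups were 6, 10 and 12 weeks old. The pregnant groups had been mated at 12 weeks and were taken on days 1, 2, 3, 8.5, 12.5, 14.5 and 17.5, with the day of the plug as the start of the count. Lactating mice were taken on days 1, 3 and 7. Involution began with weaning on day 7 of lactation, and glands were taken 1, 2, 3, 4 and 20 days later. Each sample was 1 inguinal gland of 1 mouse with its lymph node removed, and the strain is not stated in the labels used. In RNA of a whole gland, fewer cells of a type and less RNA per cell cannot be told apart.

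A level here is the geometric mean of the 3 arrays of a time point, in MAS5 signal units, after signals under 9.4 were set to that floor. A probe set was tested when, at 1 time point or more, all 3 mice gave a signal over 22.8. Of the 12 member probe sets 10 passed. The Igf2 probe set 98622_at was under the floor in 44 of 54 arrays and reached 21.6 at most, and the Igfbp4 probe set 101570_at was under it in 43 of 54 and reached 22.2. These 2 were dim throughout, and Igf2 and Igfbp4 are described by their other probe sets. Called means an adjusted p under 0.05 in limma, Benjamini-Hochberg over all 8640 probe sets tested.

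Start regions of members are shown first, as a description. A link between their letters and the changes in level was not tested. The sequences are the 250 bases before a transcript start, from RefSeq on GRCm38.p6, written along the gene's strand. Capitals mark letters of 3 motifs searched on both strands: TTCNNNGAA (the palindrome that STAT factors can bind), TATANA (TATA box letters) and GGGCGG (GC box letters). The windows below are chr10:87860861-87861110 on the plus strand for Igf1, chr1:72824230-72824479 on the plus strand for Igfbp2, chr11:7213924-7214173 on the minus strand for Igfbp3, chr11:99040994-99041243 on the plus strand for Igfbp4 and chr15:102143936-102144185 on the plus strand for Igfbp6.
Igf1: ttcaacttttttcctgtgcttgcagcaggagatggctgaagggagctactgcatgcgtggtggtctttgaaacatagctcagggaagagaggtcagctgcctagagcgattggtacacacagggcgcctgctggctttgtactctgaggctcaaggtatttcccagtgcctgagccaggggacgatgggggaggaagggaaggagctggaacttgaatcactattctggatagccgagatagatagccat
Igfbp2: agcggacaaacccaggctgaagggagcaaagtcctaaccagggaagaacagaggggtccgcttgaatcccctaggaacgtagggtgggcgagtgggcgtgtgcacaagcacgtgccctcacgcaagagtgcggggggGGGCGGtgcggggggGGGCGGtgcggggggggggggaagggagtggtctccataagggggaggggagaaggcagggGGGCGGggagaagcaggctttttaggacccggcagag
Igfbp3: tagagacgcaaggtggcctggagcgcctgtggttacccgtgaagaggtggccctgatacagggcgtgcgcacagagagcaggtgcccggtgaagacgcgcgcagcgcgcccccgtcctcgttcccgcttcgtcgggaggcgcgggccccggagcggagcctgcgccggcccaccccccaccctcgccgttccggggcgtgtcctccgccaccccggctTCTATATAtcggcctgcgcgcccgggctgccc
Igfbp4: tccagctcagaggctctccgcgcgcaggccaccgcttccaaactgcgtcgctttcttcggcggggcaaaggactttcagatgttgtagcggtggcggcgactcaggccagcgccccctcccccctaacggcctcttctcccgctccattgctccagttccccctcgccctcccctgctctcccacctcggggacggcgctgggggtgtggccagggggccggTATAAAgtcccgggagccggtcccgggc
Igfbp6: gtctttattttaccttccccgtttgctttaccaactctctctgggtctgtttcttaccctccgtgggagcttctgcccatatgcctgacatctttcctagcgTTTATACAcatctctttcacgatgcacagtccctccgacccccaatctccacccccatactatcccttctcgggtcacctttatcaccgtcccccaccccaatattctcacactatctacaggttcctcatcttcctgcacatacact

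All 7 member genes had a window in the RefSeq table, 11 windows in all, with 4 for Igf2 and 2 for Igfbp2. The starts used for Igf1 (87861111), Igfbp3 (7213923) and Igfbp4 (99041244) lie inside the spans given for these genes. The bases before the outer ends of these 3 genes were not searched. The STAT letters were in 0 of the 11 windows, against 7.02% of all 32851 windows of this length. TATA letters stood in 3 windows, those of Igfbp3, Igfbp4 and Igfbp6, against 22.6% of all windows. In Igfbp4 the letters TATAAA began 28 bases before the start, and in Igfbp3 a pair of overlapping matches began 32 and 30 bases before it. The overlapping pair of Igfbp6 lay 148 and 146 bases before the start. GC box letters stood in 4 windows, against 32.7% of all: 2 of Igf2, that of Igf1r and the first of Igfbp2, which held 3 copies at 113, 98 and 37 bases before the start. The Igf1 window held letters of none of the 3 motifs. A match describes letters only, and a window without one says only that those letters are not in it.

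Over all 18 time points, 9 of the 10 tested member probe sets changed by limma's F test, beside 88.1% of all probe sets tested, so a change over the series is no mark of these genes. The probe set that was not called was 94222_at of Igfbp4 (adjusted p = 0.288). The widest ranges of level belonged to Igfbp3 95082_at, 15.4-fold with its lowest level at the floor, and Igf1 95546_g_at, 11.3-fold. Igf2 98623_g_at spanned 2.71-fold. The signals of all arrays are drawn in the plot of the 10 probe sets by time point.

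**Figure D1:**
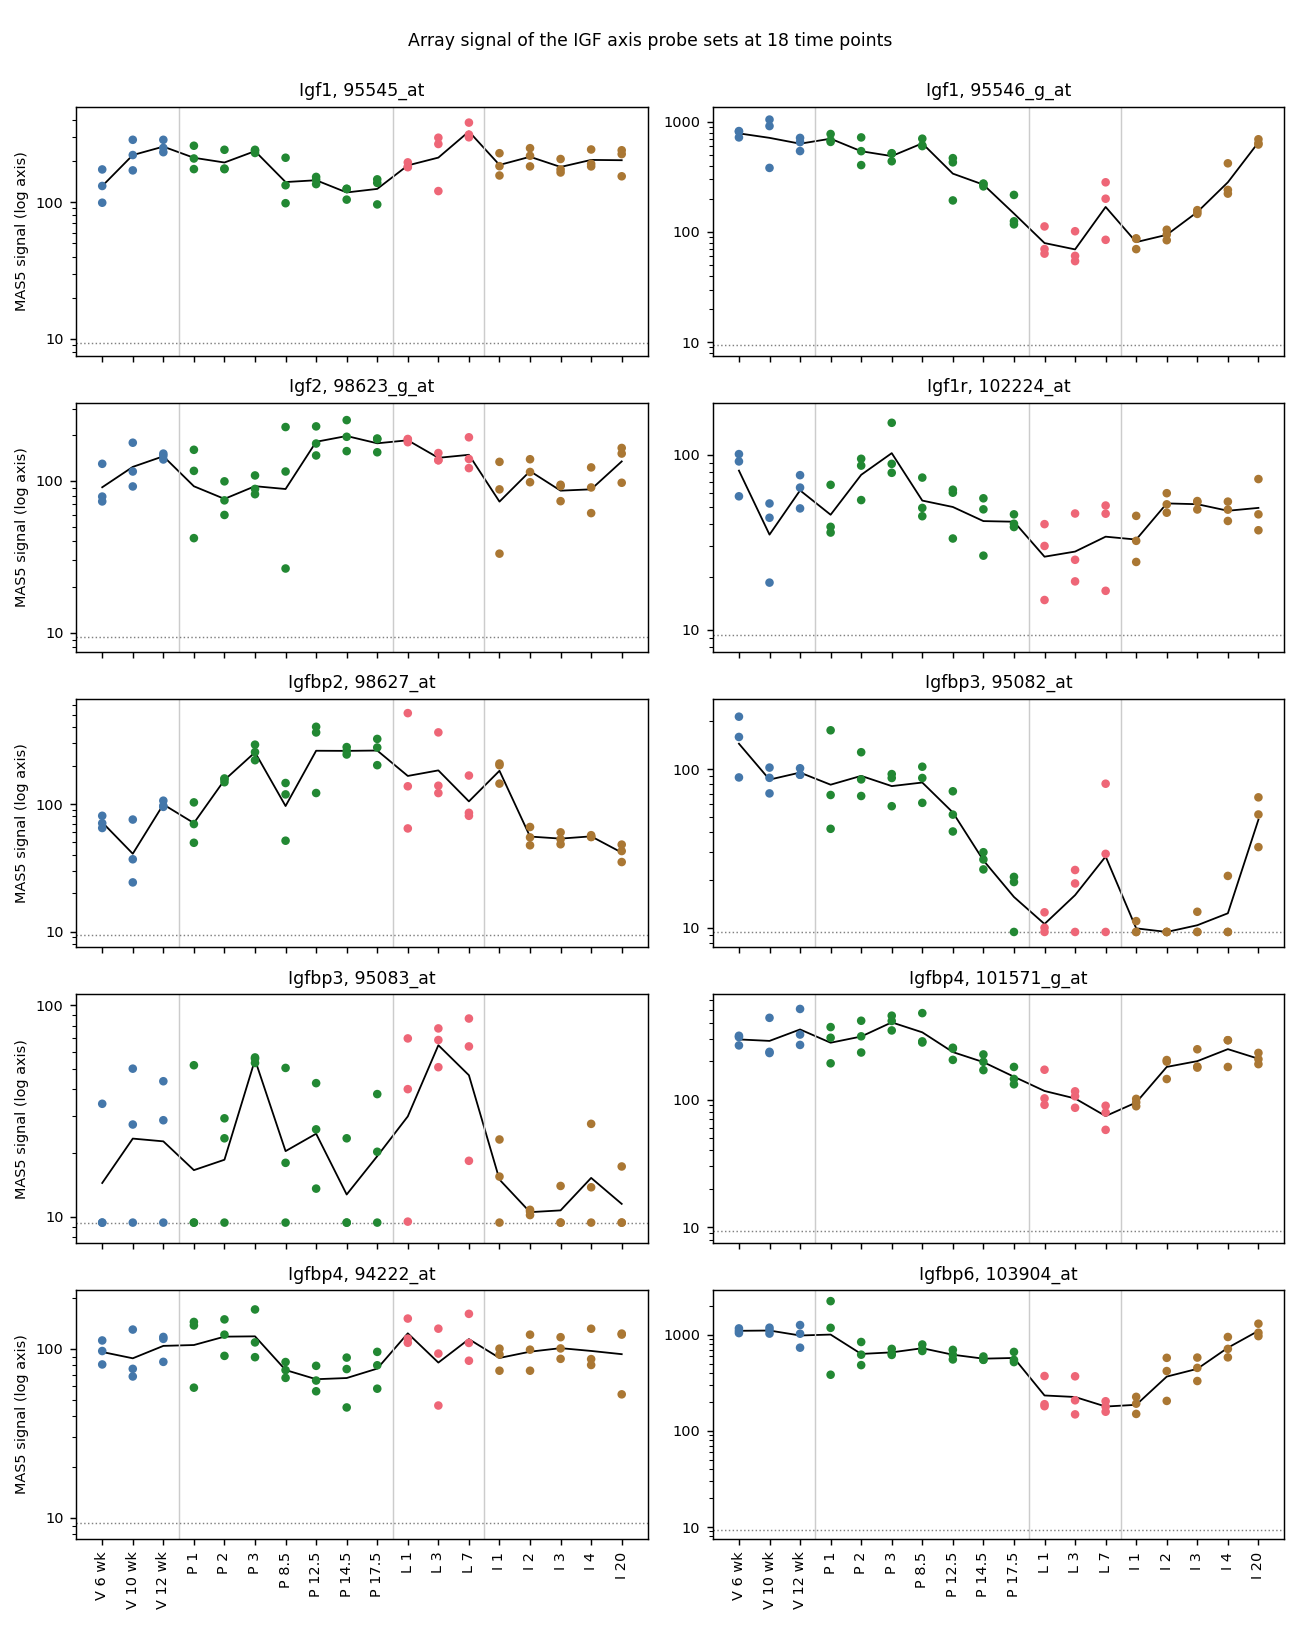
MAS5 signal (log axis, floored at 9.4, the dotted line) of the 10 tested member probe sets at 18 time points, from virgin (V, weeks) through pregnancy (P, days) and lactation (L, days) to involution (I, days). Points are single mice and lines join the geometric means of 3 mice. Igf1 95546_g_at has its lowest level at lactation day 3 and Igfbp4 101571_g_at and Igfbp6 have theirs at lactation day 7, whereas Igf1 95545_at has its highest level, 329, at lactation day 7.

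Igf1, the main growth factor of the axis, was read by a pair of probe sets that did not move alike. On 95546_g_at the 3 virgin mice of 12 weeks gave 654.5, 714.8 and 543.0, and the mice of pregnancy day 14.5 gave 259.5, 272.7 and 275.1. Every pregnant mouse lay under every virgin one, and the level fell from 633 to 269 (log2 difference -1.24 ± 0.33 SE, limma adjusted p = 0.00636, n = 3 each). At pregnancy day 17.5 the signals were 117.3, 217.1 and 125.0, and at lactation day 1 they were 70.0, 112.3 and 63.6. The day 1 lactating mice all lay lower, and the level fell from 147 to 79.4 (-0.89 ± 0.33, adjusted p = 0.0418). That call was lost without pregnant mouse B (0.256) or C (0.0522) or lactating mouse A (0.111) or C (0.154), without the filter (0.0658), with the beta-actin ratio (0.104) or Arl2bp and Glo1 (-0.67 ± 0.35, 0.162) in the fit and with only the 6 arrays compared (0.128).

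At lactation day 3 this probe set reached its lowest level, 69.5, with signals of 54.4, 60.7 and 101.6. At lactation day 7 the mice were spread, at 282.6, 84.9 and 200.5. All 3 still lay below all 3 virgin mice of 12 weeks, and the level was 3.75-fold lower (-1.91 ± 0.33, limma adjusted p = 4.6e-06, n = 3 each). After pup removal the signals were 84.2, 104.8 and 94.9 on involution day 2, overlapping the mice of lactation day 7. The fall against lactation day 7 (-0.84 ± 0.33, adjusted p = 0.0436) was lost without any of 5 arrays, with adjusted p values of 0.328 and 0.148 without lactating mouse A or C and 0.126, 0.0600 and 0.0819 without involution mouse A, B or C. It was also lost under 5 other settings (0.0516 to 0.184).

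On 95546_g_at the involution day 3 mice gave 157.9, 151.5 and 146.0, and the day 4 mice 420.3, 223.0 and 241.0. Day 4 overlapped lactation day 7 and was not called (0.74 ± 0.33, limma adjusted p = 0.0597); it was called with array quality weights (0.0187), with the beta-actin ratio (0.0353) or Arl2bp and Glo1 (0.0468) in the fit, and without lactation mouse A (0.00893) or involution mouse B (0.0424). By day 20 the signals were 622.4, 694.7 and 639.2, overlapping the virgin mice of 12 weeks, with a level of 651 against 633 (0.04 ± 0.33, 95% interval -0.62 to 0.70, adjusted p = 0.968). In the order of its 18 levels, 16 of 17 neighbouring pairs overlapped in their arrays. The break lay between pregnancy day 17.5 (147) and involution day 2 (94.3), with involution days 1 and 2 and lactation days 1 and 3 below it.

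The other Igf1 probe set, 95545_at, ran another course. Its signals were 99.1, 173.6 and 131.4 at 6 weeks and 232.2, 286.0 and 249.7 at 12 weeks. All mice of 12 weeks lay above those of 6 weeks, and the level rose from 131 to 255 (0.96 ± 0.25, limma adjusted p = 0.00495, n = 3 each). The 3' to 5' signal ratio of the beta-actin control, a measure of RNA integrity, was 3.75 ± 0.36 (SD, n = 3) at 6 weeks and 1.99 ± 0.49 at 12 weeks; with this ratio in the fit the adjusted p was 0.187, and without the 6 weeks mouse A it was 0.0509. The median over all probe sets was 0.17 at this step, and -0.03 after scaling arrays to the same median. The part of RNA integrity in this difference was not tested further.

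At pregnancy day 14.5 the 95545_at signals were 125.4, 104.4 and 124.9. They lay below every virgin mouse of 12 weeks, as on the first probe set, and the level fell to 118 (-1.11 ± 0.25, limma adjusted p = 0.00159). Between pregnancy day 17.5 (146.9, 96.3 and 138.4) and lactation day 1 (195.6, 180.3 and 182) it went the other way from the first probe set. All mice of lactation day 1 lay higher, with a level of 186 against 125, but the difference was not called (0.57 ± 0.25, limma adjusted p = 0.0957). At lactation day 7 the mice gave 298.4, 382.2 and 312.4. This was the highest level of the series, 329, with arrays clear of the next one in order, 12 weeks virgin at 255, but the difference between these groups was not called (0.37 ± 0.25, interval -0.14 to 0.88, adjusted p = 0.225). Involution day 2 gave 248.4, 218.6 and 182.8, all below lactation day 7 but not called (-0.61 ± 0.25, adjusted p = 0.0580), except in 4 alternatives (adjusted p values of 0.0139 to 0.0304). Involution day 4 gave 243.0, 190.8 and 182.7, all below lactation day 7, and the level fell to 204 (-0.69 ± 0.25, adjusted p = 0.0237). Leaving out lactation mouse B or involution mouse B or C ended that call, with adjusted p values of 0.0991, 0.0709 and 0.0845.

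Igf2, the ligand best known for fetal growth, was read by 98623_g_at. The 12 weeks virgin mice gave 146.6, 138.5 and 151.4. The mice of pregnancy day 14.5, its highest level at 198, gave 251.6, 195.4 and 157.2. The involution day 1 mice, its lowest level at 73.1, gave 33.2, 133.6 and 88.0. Though pregnancy day 14.5 did not overlap 12 weeks virgin, that difference was not called (0.44 ± 0.45, limma adjusted p = 0.526), nor was any of the other comparisons. All 17 neighbouring pairs in its order of levels overlapped, and the F test over the 18 time points gave an adjusted p of 0.0195. Single mice differed widely: pregnancy day 8.5 gave 115.4, 226.5 and 26.5.

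Igf1r, the receptor kinase that both ligands act on, was read by 1 probe set with low signals. At pregnancy day 3, its highest level at 102, the mice gave 88.5, 78.7 and 151.8. The 12 weeks virgin mice gave 76.3, 64.8 and 49.3, all lower, yet the difference was not called (0.71 ± 0.40, limma adjusted p = 0.366, n = 3 each). Lactation day 1 was lowest, with 30.1, 14.8 and 40.1, and lactation day 7 gave 51.2, 16.7 and 46.0.

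Set against 12 weeks virgin, the Igf1r level of lactation day 7 was 34.0 against 62.5, with 1 lactating mouse inside the virgin range. The difference missed the threshold (-0.88 ± 0.40, 95% interval -1.69 to -0.07, limma adjusted p = 0.0644). It was called with array quality weights (adjusted p = 0.0351), with the beta-actin ratio in the fit (0.0485), and without lactation mouse A (0.0279) or C (0.0428). The F test over all time points was called (adjusted p = 0.00097), while all 17 neighbouring pairs of levels overlapped. In lactation and on involution day 1 the levels lay between 26.1 and 34.0, and those of involution days 2 to 20 between 47.8 and 52.6.

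Igfbp2, a binding protein with a preference for Igf2, was the only tested member called higher at pregnancy day 14.5. The 12 weeks virgin mice gave 97.0, 106.3 and 95.1, and the pregnancy day 3 mice 255.7, 292.4 and 220.9. All pregnant mice lay above all virgin ones, but the adjusted p was 0.0783 (1.36 ± 0.46, limma, n = 3 each); the difference was called with array quality weights (0.0107), with the beta-actin ratio in the fit (0.0379) and with only the 6 arrays compared (0.0198). At pregnancy day 14.5 the signals were 244.8, 260.7 and 279.9, a 2.63-fold higher level (1.40 ± 0.46, adjusted p = 0.0284). That call was lost when any 1 of the 6 arrays was left out, with adjusted p values from 0.0585 to 0.0751.

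Between those days Igfbp2 was not uniform. Pregnancy day 8.5 gave 119.1, 146.3 and 51.6, a level of 96.5 close to that of 12 weeks virgin, and pregnancy day 12.5 gave 364.6, 403.9 and 122.1. Its highest level, 263, came at pregnancy day 17.5 with 324.3, 201.9 and 277.8. Lactation day 1 had the widest spread, 516.8, 64.4 and 137.9, and overlapped pregnancy day 17.5 (-0.66 ± 0.46, limma adjusted p = 0.302). Without lactation mouse A, the highest, the difference was -1.48 ± 0.43 and was called (adjusted p = 0.0109), and over the 6 arrays left out in turn it ran from -1.48 to 0.02.

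After weaning, Igfbp2 gave 208.0, 144.7 and 201.7 on involution day 1 and 66.1, 47.5 and 54.8 on day 2. The day 2 mice lay below all lactation day 7 mice, which gave 80.9, 167.4 and 85.4, but the difference was called only with array quality weights (-0.98 ± 0.39, limma adjusted p = 0.0482) and was not called otherwise (-0.92 ± 0.46, 0.119). On days 3 and 4 the signals stayed between 48.4 and 60.0; day 4 against lactation day 7 was called with array quality weights (limma adjusted p = 0.0280) and with only the 6 arrays compared (0.0471). On day 20 they were 35.1, 42.8 and 48.1, below every virgin mouse of 12 weeks but not called (-1.25 ± 0.46, adjusted p = 0.129), except with array quality weights (0.0307) and with only the 6 arrays compared (0.0442). The order of levels had 1 break, between involution day 3 (53.6) and day 20 (41.7). The virgin levels were themselves unlike: the lowest Igfbp2 level of the series, 40.8, was at 10 weeks virgin. At 6 weeks it was 71.9 and at 12 weeks 99.3.

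Igfbp3, the main carrier of Igf1 in the circulation, had a pair of probe sets, both near the floor at many time points. On 95082_at the 12 weeks virgin mice gave 101.1, 92.0 and 92.1, and the pregnancy day 14.5 mice 23.3, 29.9 and 26.9. The groups were far apart, and the level fell from 95.0 to 26.6 (-1.84 ± 0.47, limma adjusted p = 0.00477, n = 3 each). Lactation day 1 gave 8.3, 10.0 and 12.5. Lactation day 7 gave 80.8, 29.2 and 4.1, a wide spread that still lay below every virgin mouse of 12 weeks (-1.76 ± 0.47, adjusted p = 0.00182). Without lactation mouse C, which was under the floor, that adjusted p was 0.0791, and with only the 6 arrays compared it was 0.0677.

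On involution day 2 all 3 mice were under the floor on 95082_at, at 3.5, 3.5 and 4.0, and the level of lactation day 7 was 2.99-fold higher on floored signals (limma adjusted p = 0.00831), with lactation mouse C at the floor too. Without lactation mouse A, the highest, the adjusted p was 0.188, with a floor of 22.8 it was 0.105 and with only the 6 arrays compared 0.147. On day 4 the mice gave 21.2, 8.3 and 6.4, inside the lactating range, and the call (-1.19 ± 0.47, adjusted p = 0.0364) was lost without lactation mouse A (0.486) or B (0.0784), or without involution mouse B (0.134) or C (0.132), and with no floor (0.178), a floor of 22.8 (0.0875), no filter (0.0529) or only 6 arrays (0.247). By day 20 the signals were 51.7, 32.2 and 66.3, again below all virgin mice of 12 weeks but not called (-0.99 ± 0.47, adjusted p = 0.277). The probe set was under the floor in 13 of 54 arrays.

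On the other Igfbp3 probe set, 95083_at, 16 of 54 arrays were under the floor. The lactation day 3 mice, its highest level at 64.6, gave 68.4, 50.9 and 77.6. The 12 weeks virgin mice gave 28.6, 43.7 and 9.4, and lactation day 7 gave 86.4, 18.4 and 63.8, overlapping them (1.04 ± 0.71, limma adjusted p = 0.226). Involution day 2, with 10.2, 10.6 and 10.8, lay below all lactation day 7 mice and was called lower (-2.15 ± 0.71, adjusted p = 0.0184). Without lactation mouse A or C the adjusted p was 0.106 or 0.0727.

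Igfbp4, a binding protein known for blocking Igf action until a protease cuts it, had 3 of the 5 member differences that stayed called in every alternative run, and Igfbp6 the other two. On 101571_g_at the 12 weeks virgin mice gave 511.5, 267.5 and 322.6. The mice of pregnancy day 3, its highest level at 402, gave 347.3, 411.9 and 453.1 and overlapped them. At pregnancy day 14.5 the signals were 169.9, 197.2 and 225.4, all below the virgin ones, and the level fell from 353 to 196 (-0.85 ± 0.27, limma adjusted p = 0.0213, n = 3 each). This call was lost without virgin mouse A (0.184) or pregnant mouse A (0.0934) or B (0.0604), with all arrays scaled to the same median (0.0596) and with the beta-actin ratio in the fit (0.0558).

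Lactation day 7 was the lowest Igfbp4 level, 74.3, with 57.9, 79.1 and 89.4. No lactating mouse came near the virgin ones, and the level was 4.76-fold lower (-2.25 ± 0.27, limma adjusted p = 2.18e-09). Involution day 2 gave 197.9, 203.7 and 144.7, all above lactation day 7, and the level rose 2.42-fold (1.28 ± 0.27, adjusted p = 0.000215). On involution day 4 the mice gave 291.3, 179.8 and 291.0, 3.34-fold higher than lactation day 7 (1.74 ± 0.27, adjusted p = 8.79e-07). Day 20 gave 189.2, 231.7 and 206.9, below every virgin mouse of 12 weeks but not called (-0.76 ± 0.27, adjusted p = 0.112), except with array quality weights (0.0351).

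On the second tested Igfbp4 probe set, 94222_at, no comparison was called in the main fit. The 12 weeks virgin mice gave 117.5, 83.7 and 114.5 and the lactation day 7 mice 160.9, 85.0 and 108.3. These overlapped (0.13 ± 0.35, 95% interval -0.56 to 0.83, limma adjusted p = 0.771), which is far from the difference on 101571_g_at. Its levels ran from 66.1 at pregnancy day 12.5 to 123 at lactation day 1. All mice of lactation day 1 lay above those of pregnancy day 17.5 (0.69 ± 0.35, limma adjusted p = 0.141). With Arl2bp and Glo1 in the fit this rise was called (1.00 ± 0.36, adjusted p = 0.0392). At the same step 101571_g_at went lower and was not called (-0.37 ± 0.27, adjusted p = 0.324), except with the beta-actin ratio in the fit (-0.62 ± 0.22, 0.0397).

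Igfbp6, a binding protein that prefers Igf2, had its highest level, 1106, at 10 weeks. The 12 weeks virgin mice gave 733.4, 1025.1 and 1261.3. Pregnancy day 14.5 gave 593.9, 548.1 and 551.1, all lower, though not called (-0.80 ± 0.36, limma adjusted p = 0.113, n = 3 each). Single mice stood far apart at pregnancy day 1, with 1179.9, 2236.9 and 383.7; mice A and B there had Gapdh 3' to 5' ratios of 23.1 and 20.1. The pregnancy day 14.5 difference was called with array quality weights (limma adjusted p = 0.0110), with only the 6 arrays compared (0.0231) and, a choice made after the data were seen, with these 2 arrays and 2 of pregnancy day 2 left out of the fit (0.0413).

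Between late pregnancy and lactation Igfbp6 fell. The pregnancy day 17.5 mice gave 519.3, 662.8 and 547.6, and the lactation day 1 mice 372.1, 189.4 and 180.7. The groups did not overlap, and the level fell from 573 to 234 (-1.30 ± 0.36, limma adjusted p = 0.00719). Without lactation mouse B the adjusted p was 0.0529. At lactation day 7 the signals were 178.8, 203.3 and 158.2, the lowest level at 179 and 5.48-fold below 12 weeks virgin (-2.46 ± 0.36, adjusted p = 2.41e-07).

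In involution Igfbp6 rose again. Involution day 1 gave 225.9, 150.1 and 191.9, in the range of lactation. Day 2 gave 419.1, 575.1 and 205.0, just above all lactation day 7 mice (1.03 ± 0.36, limma adjusted p = 0.0233), a call lost without lactation mouse A (0.0515) or C (0.0794), or involution mouse A (0.0819) or B (0.177), and with only 6 arrays (0.0789). On day 4 the mice gave 712.6, 947.6 and 581.8, 4.09-fold higher than lactation day 7 (2.03 ± 0.36, adjusted p = 1.12e-05). Day 20 gave 1049.3, 1303.1 and 967.5, overlapping 12 weeks virgin (0.16 ± 0.36, interval -0.56 to 0.88, adjusted p = 0.866).

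Seen by comparison, 1 of the 10 tested member probe sets was called between 12 and 6 weeks virgin, Igf1 95545_at, beside 29.8% of all probe sets (17.2% higher and 12.5% lower). At pregnancy day 3 against 12 weeks virgin the count was 0, beside 4.24% (2.69% higher and 1.55% lower); limma's unadjusted p was under 0.05 for Igfbp2 alone. At pregnancy day 14.5 it was 5, beside 17.7% (8.82% higher and 8.85% lower): both Igf1 probe sets, Igfbp3 95082_at and Igfbp4 101571_g_at fell and Igfbp2 rose. The median log2 difference of the 10 was -0.82, and that of all probe sets -0.09. Lactation day 1 against pregnancy day 17.5 gave 2, Igf1 95546_g_at and Igfbp6, both lower, beside 23.3% (10.1% higher and 13.2% lower). The share at this step, 20.0%, was near the background and is no result about these genes.

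Lactation day 7 against 12 weeks virgin gave 4 called, all lower, beside 51.6% of all probe sets (24.3% higher and 27.2% lower): Igf1 95546_g_at, Igfbp3 95082_at, Igfbp4 101571_g_at and Igfbp6. The median over the 10 was -0.42, against -0.01 over all probe sets. Involution day 2 against lactation day 7 gave 5, beside 31.9% (17.2% higher and 14.7% lower), with Igfbp4 101571_g_at and Igfbp6 higher and Igf1 95546_g_at and both Igfbp3 probe sets lower. Involution day 4 against lactation day 7 gave 4, beside 44.4% (22.7% higher and 21.7% lower), with the same 2 higher and Igf1 95545_at and Igfbp3 95082_at lower. Involution day 20 against 12 weeks virgin gave 0, beside 2.64% (1.27% higher and 1.37% lower); limma's unadjusted p was under 0.05 for Igfbp2, Igfbp3 95082_at and Igfbp4 101571_g_at. Comparisons with 12 weeks virgin share those 3 mice, and both comparisons of early involution share the lactation day 7 mice, so none of them supports another.

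**Figure D2:**
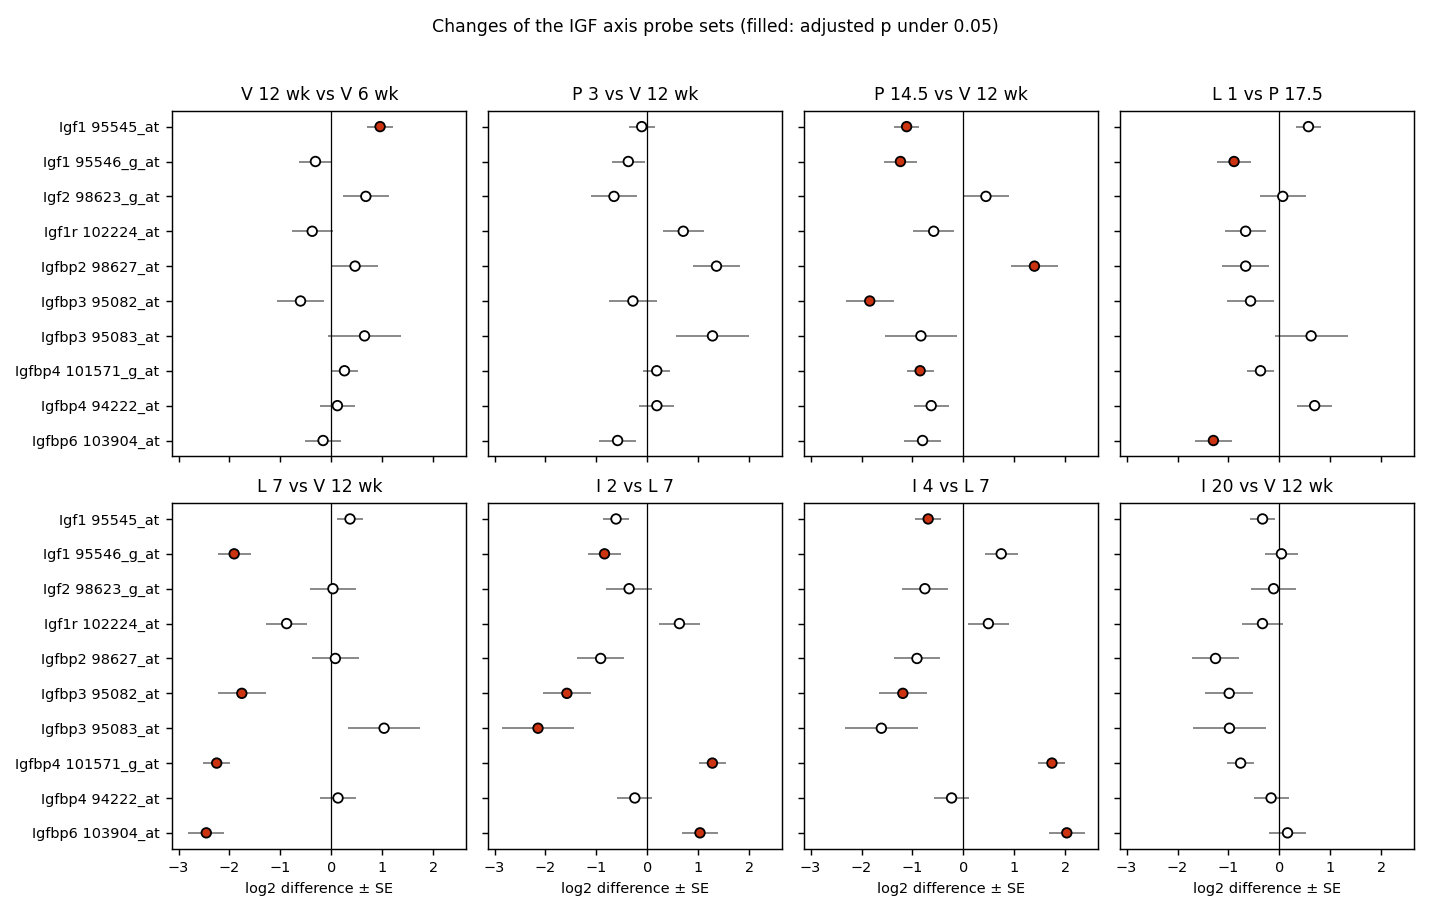
Log2 difference ± SE (limma, 3 mice against 3) of the 10 tested member probe sets in 8 comparisons of time points, named above each panel. Filled points have an adjusted p under 0.05. At lactation day 7 against 12 weeks virgin, Igf1 95546_g_at, Igfbp3 95082_at, Igfbp4 101571_g_at and Igfbp6 lie between -1.76 and -2.46 and the other 6 are open; at involution day 20 against 12 weeks virgin all 10 are open.

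For Igf1, Igfbp3 and Igfbp4 the paired probe sets were set against each other within each array. The log2 ratio of both signals is given for the 9 virgin and the 9 lactating mice, groups of 3 time points each that were set side by side after these patterns had been seen, so the values are a description with no test. The Igf1 ratio of 95545_at to 95546_g_at was -1.86 ± 0.83 (SD, n = 9) in virgin and 1.27 ± 0.70 in lactating mice. The virgin mice lay from -3.04 to -0.42 and the lactating ones from 0.08 to 2.17, so the groups did not overlap. The means differed by 3.13, and the ratio does not say which probe set follows the gene.

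For Igfbp4 the log2 ratio of 101571_g_at to 94222_at went from 1.70 ± 0.22 (SD, n = 9) to -0.13 ± 0.70. The virgin mice lay from 1.45 to 2.12 and the lactating ones from -1.47 to 0.90, again apart. For Igfbp3 the ratio of 95082_at to 95083_at went from 2.42 ± 1.21 to -1.41 ± 1.28, with overlap and with many signals at the floor. Over the 18 time point means the paired probe sets had Pearson correlations of -0.05 for Igf1, 0.13 for Igfbp3 and 0.02 for Igfbp4, a description of points that share mice and arrays. Statements on these genes hold for the probe set named.

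**Figure D3:**
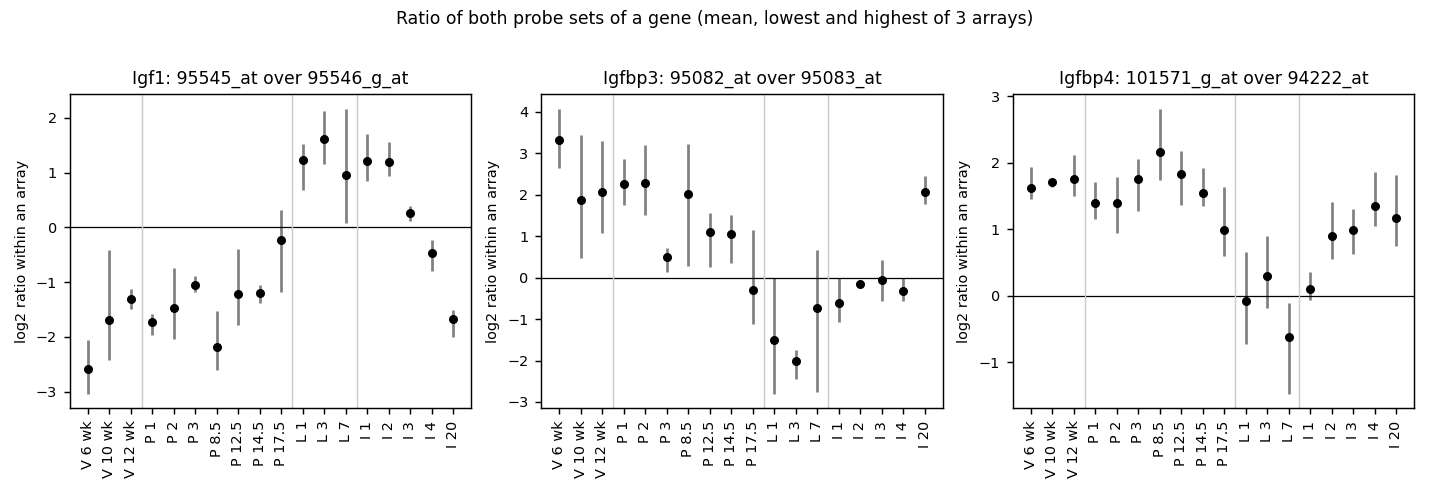
Log2 ratio of the signals of both tested probe sets of a gene within an array, for Igf1, Igfbp3 and Igfbp4 at 18 time points (V, virgin weeks; P, pregnancy, L, lactation and I, involution days). Points are means of 3 mice and bars run from the lowest to the highest mouse. The Igf1 ratio was below 0 in all virgin mice and above 0 in all lactating ones, and its mean was back at -1.68 by involution day 20.

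Other genes of the pathway were taken from a list of 36 names, of which 19 had a probe set that was tested. A further 7 (Igfbp1, Insr, Insrr, Irs1, Stc1, Igf2bp1 and Ptpn11) were too dim, and 10, among them Igfbp5, Pappa and H19, were not analysed here. Over the 18 time points 16 of 19 changed by limma's F test, and Grb10, Pdpk1 and Sos1 did not pass (adjusted p = 0.167 for Pdpk1 and 0.191 for Sos1, while Grb10 lay just over the threshold). Between 12 and 6 weeks virgin 7 rose and 2 fell, at pregnancy day 3 1 rose, and at pregnancy day 14.5 2 rose and 4 fell. At lactation day 1 against pregnancy day 17.5 2 rose and 4 fell, and at lactation day 7 against 12 weeks virgin 5 rose and 7 fell. Involution day 2 had 4 higher and 1 lower than lactation day 7, involution day 4 had 5 and 3, and at involution day 20 against 12 weeks virgin 3 were lower. The background shares given for the members hold here too. The medians over the 19 at these 8 steps lay between -0.20 and 0.31, against -0.09 to 0.17 over all probe sets.

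Upstream of Igf1, Ghr encodes the growth hormone receptor. Its 12 weeks virgin mice gave 795.7, 681.4 and 779.6, its pregnancy day 14.5 mice 312.7, 480.5 and 396.0, and its lactation day 7 mice 106.9, 94.5 and 68.4. No groups overlapped: the level fell to 390 by pregnancy day 14.5 (-0.94 ± 0.24, limma adjusted p = 0.00393) and was 8.49-fold lower at lactation day 7 (-3.09 ± 0.24, adjusted p = 1.87e-14). Involution day 2 gave 209.8, 202.1 and 137.1 and day 4 gave 376.3, 325.7 and 276.5, both above all lactation mice (1.02 ± 0.24, adjusted p = 0.000748, and 1.87 ± 0.24, adjusted p = 1.67e-08). At involution day 20 its mice gave 905.1, 591.4 and 660.2, and no call was made against 12 weeks virgin.

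Of the genes that act on the ligand outside the cell, Igfals encodes the acid-labile subunit of the circulating Igf complex and moved the other way from Ghr. Its 12 weeks virgin mice gave 132.2, 154.0 and 181.7, pregnancy day 14.5 gave 409.0, 323.6 and 382.5, and lactation day 7 gave 762.1, 747.4 and 652.1. All pregnant and lactating mice of these days lay above the virgin ones (1.26 ± 0.22, limma adjusted p = 3.86e-05, and 2.22 ± 0.22, adjusted p = 1.46e-11). By involution day 4 it had fallen to 341 from 719 (-1.08 ± 0.22, adjusted p = 7.14e-05). Htra1, a secreted protease, fell at lactation day 7, from 565.5, 597.4 and 639.0 to 123.4, 115.8 and 120.8 (-2.32 ± 0.25, adjusted p = 3.2e-10), and rose to 373 by involution day 4 (1.64 ± 0.25, adjusted p = 1.14e-06). Stc2, an inhibitor of the proteases that cut Igfbp4, rose between 6 and 12 weeks (67.2 to 203) and fell to 39.4 at pregnancy day 14.5 (-2.36 ± 0.33, adjusted p = 1e-06). It was also lower at lactation day 7 (48.3) and at involution day 20 (73.8, adjusted p = 0.00529) than at 12 weeks.

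Among the signalling genes inside the cell, the kinases Akt1 and Akt2 ran different courses. Akt1 gave 467.4, 417.5 and 422.8 at pregnancy day 17.5 and 964.7, 1128.5 and 1025.9 at lactation day 1, without overlap (1.25 ± 0.32, limma adjusted p = 0.00395). At lactation day 7 its level was 1103 against 226 at 12 weeks virgin (2.29 ± 0.32, adjusted p = 1.18e-07), and by involution day 2 it had fallen to 447 (-1.30 ± 0.32, adjusted p = 0.00164). Akt2 rose from 184 at 6 weeks to 585 at 12 weeks (1.67 ± 0.33, adjusted p = 0.000513) and was lower than that at pregnancy day 14.5 (194, adjusted p = 0.000631) and at involution day 20 (254, adjusted p = 0.0341). Gab1, an adaptor of receptor kinases, rose after weaning, from 74.1 at lactation day 7 to 153 on involution day 2 (1.05 ± 0.20, adjusted p = 5.77e-05) and 160 on day 4.

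Pik3r1, the regulatory subunit of phosphoinositide 3-kinase, rose after weaning. Its lactation day 7 mice gave 73.2, 98.5 and 49.7 and its involution day 2 mice 339.3, 325.9 and 454.5, a 5.20-fold higher level with no overlap (2.38 ± 0.31, limma adjusted p = 1.01e-07). On involution day 4 it was 263 (1.89 ± 0.31, adjusted p = 4.31e-06). Irs2, an adaptor of the insulin and Igf receptors, gave 68.1, 68.1 and 47.9 at 12 weeks and 19.7, 6.5 and 5.2 at 6 weeks, most of the latter under the floor (2.33 ± 0.65, adjusted p = 0.00727). It was lower than at 12 weeks at pregnancy day 14.5, lactation day 7 and involution day 20 (levels of 12.2, 16.9 and 11.2). Socs2, a feedback inhibitor of growth hormone signalling, was the 1 listed gene called at pregnancy day 3, with 244.5, 330.7 and 326.0 against 126.2, 124.5 and 136.5 at 12 weeks (1.21 ± 0.36, adjusted p = 0.0410). Igf2r, which takes up Igf2, and Igfbp7 were called in none of the 8 comparisons.

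Markers of other cell types moved over the same time points. The background shares given for the members hold here too. Of all probe sets 8.85% were lower at pregnancy day 14.5 and 27.2% at lactation day 7, both against 12 weeks virgin. Against lactation day 7, 17.2% were higher at involution day 2 and 22.7% at day 4. Of 13 fibroblast markers listed 12 were tested, and all 12 were lower at lactation day 7 than at 12 weeks virgin, with a median log2 difference of -2.84. Their summed signal was 16729.7 to 18698.6 per array at 12 weeks, 12810.3 to 15177.5 at pregnancy day 14.5, 1992.9 to 2900.5 at lactation day 7, 5450.6 to 8288.1 at involution day 2, 9592.1 to 12947.0 at involution day 4 and 14602.7 to 17713.0 at involution day 20. The falls of Igf1 95546_g_at (-1.91), Igfbp4 101571_g_at (-2.25) and Igfbp6 (-2.46) at lactation day 7 stand beside that, and the rises of Igfbp4 101571_g_at and Igfbp6 in involution beside 11 of 12 fibroblast markers higher at day 2 and at day 4. At pregnancy day 14.5, when 4 member probe sets were lower, 2 of 12 fibroblast markers were lower.

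White adipocyte markers (10 tested of 12) were lower for 7 of 10 at lactation day 7 (median -1.88) and for 5 of 10 at pregnancy day 14.5. Their summed signal per array was 12691.8 to 13567.6 at 12 weeks, 8284.7 to 9673.5 at pregnancy day 14.5, 4092.8 to 4814.5 at lactation day 7, 4072.5 to 5202.1 at involution day 2 and 7763.5 to 9632.5 at involution day 4. Endothelial markers were lower for 5 of 9 at pregnancy day 14.5 and for 7 of 9 at lactation day 7, when 1 was higher. At involution day 2, 4 of 10 white adipocyte markers were higher and 2 lower than at lactation day 7, and 2 of 9 endothelial markers were higher. At involution day 4, 6 of 10 white adipocyte markers were higher and 2 lower (median 1.24). Of the endothelial markers 6 of 9 were higher and 1 was lower on that day (median 0.89). Of 8 T cell markers listed 4 were tested, and 2 of these were lower than at 12 weeks at pregnancy day 3, pregnancy day 14.5, lactation day 7 and involution day 20 (medians of -1.44, -1.83, -1.42 and -1.29); their summed signal was 165.1 to 285.0 per array at 12 weeks, 38.0 to 63.9 at pregnancy day 14.5, 67.8 to 138.6 at lactation day 7 and 29.0 to 163.4 at involution day 20. Of 8 B and plasma cell markers 6 were tested, with 3 lower at pregnancy day 14.5 (median -1.50), 2 lower and 1 higher at lactation day 7 and 1 higher at involution day 20; their summed signal was 932.1 to 1193.4 at 12 weeks, 317.6 to 519.1 at pregnancy day 14.5, 699.0 to 888.5 at lactation day 7 and 1355.8 to 1849.3 at involution day 20. Of 7 tested macrophage markers, 5 were lower and 1 was higher at lactation day 7, and 6 were higher at involution day 2 and at day 4. The 8 milk protein genes, products of the luminal epithelium, rose from a summed signal of 1495.0 to 2085.8 at 12 weeks to 98424.5 to 100588.0 at lactation day 7. Of the luminal markers 5 of 10 were higher at pregnancy day 14.5, and of the basal markers 4 of 6, the day when Igfbp2 was called higher. At pregnancy day 3, when Igfbp2 was 2.56-fold higher but not called, 2 of 10 luminal and 0 of 6 basal markers were called. At lactation day 7, when Igfbp2 differed from 12 weeks virgin by 0.08, 4 luminal markers were higher and 3 lower, and 2 basal markers were higher. Against lactation day 7, 5 of 10 luminal markers were higher and 1 lower at involution day 2, and 5 were higher and 2 lower at day 4. The basal markers Krt5 and Krt14 were too dim. The part of these cell types in the changes of the Igf axis was not tested.

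**Figure D4:**
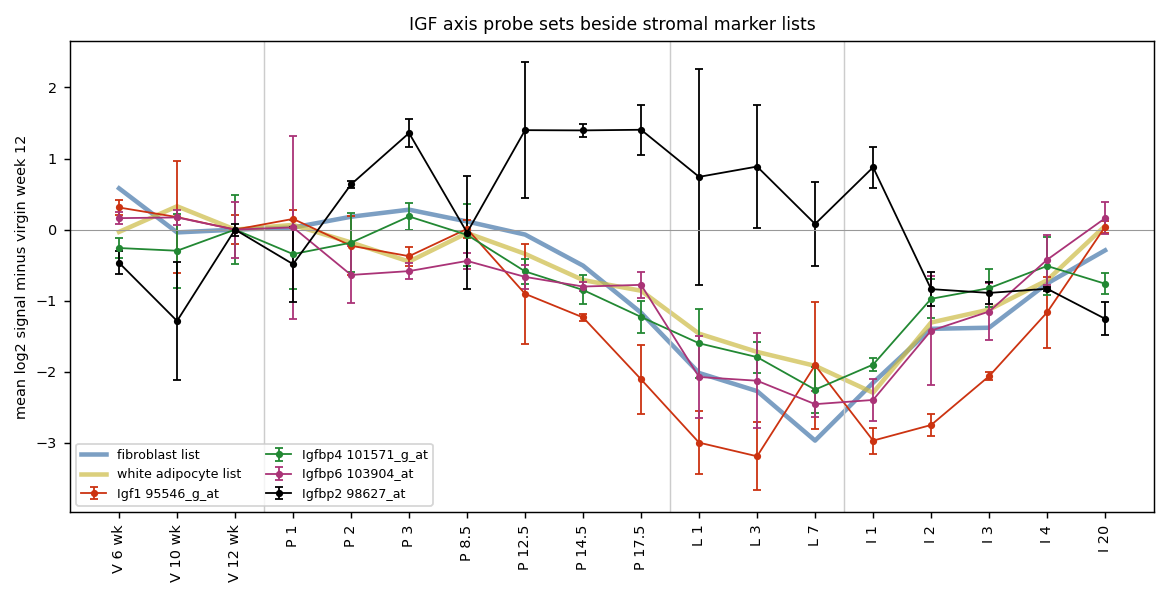
Mean log2 signal of 4 member probe sets minus its value at 12 weeks virgin (thin lines, mean ± SD of 3 mice), with the mean of the fibroblast and white adipocyte marker lists (thick lines), at 18 time points (V, virgin weeks; P, pregnancy, L, lactation and I, involution days). Igf1 95546_g_at, Igfbp4 101571_g_at and Igfbp6 lie below 0 with both lists in lactation, while Igfbp2 lies above 0 in late pregnancy.

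The arrays themselves were alike in scale, with a trimmed mean of 100.05 to 100.07 and 20.5% to 29.7% of probe sets under the floor. The signal of Arl2bp, a gene outside the axis, split the arrays into separate ranges. It was 513.7 to 804 in all 18 arrays of virgin mice and pregnancy days 1 to 3. It was 69.3 to 87.8 at pregnancy day 14.5, 79.5 to 84.6 at lactation day 7 and 87.2 to 108.8 at involution day 20. Some other time points held high and low arrays together (mice A, B and C in order). Pregnancy day 8.5 gave 73, 90.3 and 547, and day 17.5 gave 521.2, 77 and 594.8. Lactation day 1 gave 92, 480.4 and 82.2, and day 3 gave 68.3, 99.4 and 424.5. Involution day 3 gave 84.3, 415.6 and 410.6. Lactation day 1 against pregnancy day 17.5 thus compared mixed groups. Glo1, by its first signal, was 379.6 to 393.1 at 12 weeks virgin and 435.8 to 491 at pregnancy day 14.5. It was 206.4, 408.1 and 149.6 at pregnancy day 17.5 and 284.2, 145.1 and 303.6 at lactation day 1. With the signals of Arl2bp and Glo1 in the fit, none of the 5 calls at pregnancy day 14.5 stood. For 3 of them the log2 difference stayed close to its value without these signals while its SE grew: -0.96 ± 0.41 for Igf1 95545_at (limma adjusted p = 0.227), -1.81 ± 0.77 for Igfbp3 95082_at (0.223) and -0.93 ± 0.42 for Igfbp4 101571_g_at (0.257). The other 2 were smaller, -0.60 ± 0.52 for Igf1 95546_g_at (adjusted p = 0.623) and 0.19 ± 0.69 for Igfbp2 (0.933). At lactation day 7 the calls of Igf1 95546_g_at (-0.93 ± 0.66, adjusted p = 0.325) and Igfbp3 95082_at (-1.70 ± 0.98, 0.216) were lost, while those of Igfbp4 101571_g_at and Igfbp6 were kept. Within the comparisons of pregnancy day 14.5 and lactation day 7 with 12 weeks virgin, Arl2bp was high in every virgin array and low in every other. Its range and the stage cannot be told apart there. Arl2bp was low at involution day 20 too. There 0 of the 10 tested member probe sets were called against 12 weeks virgin, beside 2.64% of all probe sets, and 2 were called with array quality weights. The log2 differences of the 10 ran from -1.25 (Igfbp2) to 0.16 (Igfbp6). Limma's unadjusted p was under 0.05 for Igfbp2, Igfbp3 95082_at and Igfbp4 101571_g_at. That comparison is of another stage and does not separate the Arl2bp range from the stage. The part of the Arl2bp range in these differences was not tested.

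Some genes followed the course of a member closely over the 18 time point means. For each gene the probe set of highest mean signal was used, and the correlations describe points that share mice, arrays and changes of tissue make-up. Igf1 95546_g_at was most like Qk, Bnip3 and Ptprd (Pearson r of 0.973, 0.970 and 0.963). Igf2 was most like Fmc1, Tinagl1 and Ndufv3, at a lower likeness (0.846, 0.821 and 0.792), and Igf1r most like Chst2, Trio and Asxl1 (0.897, 0.884 and 0.870). Igfbp2 was most like Tagln (0.904), which encodes a protein of contractile cells and is in the basal marker list, then Cdca8 and Dctpp1 (0.856 and 0.849). Tagln had its highest level, 747, at pregnancy day 17.5 and its lowest, 265, at involution day 20.

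Igfbp3 95082_at was most like Svil, Mdm4 and Pon1 (0.962, 0.957 and 0.950). Igfbp4 101571_g_at was most like P3h3, Nnmt and Fbln2 (0.965, 0.963 and 0.962); P3h3 modifies collagen and Fbln2 encodes a protein of the extracellular matrix. Fbln2 went from a highest level of 451 at pregnancy day 3 to a lowest of 50.9 at lactation day 7, the same days as Igfbp4 101571_g_at. Igfbp6 was most like Procr, Il1r2 and Art3 (0.981, 0.979 and 0.977). Procr, the endothelial protein C receptor, ran from 97.8 at 6 weeks virgin to 13.2 at lactation day 7.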

How the data were processed

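RNA of 54 mouse mammary glands, 3 mice at each of 18 time points, was measured on 1-colour arrays. The deposited values are signal intensities that the authors computed with MAS5, per the submitters' processing notes; the software version is not stated in the sources used. Groups are those of the labels, where A, B and C are not stated to pair mice. Before log2, a floor of 9.4 was set, which is percentile 25 of all values. Without the 66 control probe sets, those whose 3 mice all exceeded 22.8 (percentile 40) at 1 time point or more were kept, 8640 of 12488, with no collapsing to genes. Of the probe sets 10833 had exactly 1 symbol, 396 several and 1193 none; 10817 of the first had their Entrez identifier in the reference table, and 0 symbols changed.

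One limma model (version 3.58.1, R 4.3.3) held the 54 arrays, with time point as the factor and eBayes with an intensity trend (36 residual degrees of freedom). Tests were two-sided, with Benjamini-Hochberg adjustment over all probe sets tested. Each SE and p-value rests on the spread between mice within time points, pooled over all 18 and moderated by eBayes. It is not the spread of the 6 mice compared alone. Every member probe set is reported; of the pathway list up to 6 genes per comparison have values, called ones first by size of change. Likeness ranks genes of other symbols by Pearson r over the 18 means. Python 3.11.15, pandas 2.3.3, numpy 2.4.6, scipy 1.17.1 and matplotlib 3.10.9 did the rest. The fit was tested on simulated data. Members, gene lists and tests were chosen with earlier results of these data known, and the marker and pathway lists support nothing on their own. Alternatives were other floors, no filter, median and quantile scaling, 1 probe set per gene, no intensity trend, array weights, covariates for RNA integrity and for Arl2bp and Glo1, a replicate block, only the 6 arrays compared, and leaving out arrays.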

Additional observations from a re-analysis of the deposited data

How the results depend on the processing

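Of 21 called member differences, those of Igfbp4 101571_g_at at lactation day 7, involution day 2 and involution day 4 and of Igfbp6 at lactation day 7 and involution day 4 stayed called in every alternative run, and 0 member results reversed. Of 1016 member results under alternatives 964 kept their side of the threshold, 27 lost a call and 25 gained one; of 480 with 1 array left out 438 kept it, 35 lost and 7 gained one. Between 12 and 6 weeks virgin, the count of member probe sets called went from 1 to 0 with 1 probe set per gene and with the beta-actin ratio in the fit. At pregnancy day 3 it went from 0 to 1 with array weights, with the beta-actin ratio and with only the 6 arrays compared. With Arl2bp and Glo1 in the fit it was 0 in place of 5 at pregnancy day 14.5 and 2 in place of 4 at lactation day 7. At lactation day 1 it was 1 in place of 2 without the filter and with only 6 arrays, at involution day 2 it was 3 in place of 5 with only 6 arrays, and at involution day 20 it was 2 with array weights and 1 with only 6 arrays, in place of 0. The cause was not tested. Leaving out 1 of the 6 arrays gave 0 to 1, 0 to 0, 3 to 4, 1 to 2, 4 to 5, 1 to 5, 2 to 5 and 0 to 0 member calls in the 8 comparisons, in order of time, and 9 to 9 by the F test. The letter as a replicate block changed no member call (counts of 1, 0, 5, 2, 4, 5, 4 and 0, and 9 by the F test). Over 24 same-letter pairs the deviations correlated between -0.09 and 0.08. These values gave no sign of pairing by letter but cannot exclude it, since few probe sets may share an effect. Among all probe sets, calls went from 2571 to 349 between 12 and 6 weeks with the beta-actin ratio. Pregnancy day 3 went from 366 to 925 with array weights, 631 with beta-actin and 50 with Arl2bp and Glo1, pregnancy day 14.5 from 1527 to 3103, 2578 (only 6 arrays) and 261, and involution day 20 from 228 to 627, 129 and 69. Lactation day 1 went from 2011 to 620 with only 6 arrays, and lactation day 7 from 4456 to 1936 with Arl2bp and Glo1. Scaling to the same median moved higher against lower calls from 1488 and 1083 to 754 and 1466 at 12 weeks (quantile scaling 1155 and 1161), from 232 and 134 to 151 and 169 at pregnancy day 3, from 762 and 765 to 1153 and 450 at pregnancy day 14.5, and from 110 and 118 to 142 and 74 at involution day 20. Signal near the floor limits Igfbp3, and the dim probe sets of Igf2 and Igfbp4 give no test.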
